A study of Arabidopsis thaliana with 6 samples.

Results

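Class III peroxidases are heme enzymes that plants secrete into the cell wall and the vacuole. *Arabidopsis* has 73 genes of this family, and 60 of them, listed by their locus codes, are described here. Probes were assigned to them through the transcript that the array annotation gives for each probe. These 60 loci are set among 25433 genes with a matched probe on the array. Of the 60, 59 had a probe of their own, with 79 probes in all, and *AT1G05250* had none. There were 46 members with 1 probe and 13 with several, of which *PRXR1* (*AT4G21960*) had the most, 6.

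The arrays read RNA of shoots, that is aerial tissue, taken from seedlings at 17 days of age. The 3 control arrays held wild-type Col-0. The 3 *OsbHLH068*-overexpressing arrays held *35S::OsbHLH068* (9), a line in the Col-0 background in which the constitutive CaMV 35S promoter drives the coding sequence of a rice basic helix-loop-helix transcription factor. No treatment is named for either group. Only this line was hybridized, so effects of the rice protein and of this particular insertion cannot be told apart. In the paper's long-day trials Col-0 bolted at about 17 days and this line later. At 17 days the groups may therefore differ in developmental stage, which cannot be told apart from the transgene either. According to the methods the labeled cRNA was pooled, and what was mixed is not said. Each group was described as biological repeats by the submitters, and the tests measure the spread between these 3 arrays. The slides were shared by the groups, with both replicates numbered 1 on slide 1 and all others on slide 2. From 71% to 74.2% of the probes of an array passed the scanner's test for a signal well above background, and 0 probes of the family were saturated. All values below are log2 signals after background correction and quantile normalization, and a log2 fold change is the *OsbHLH068*-overexpressing mean minus the Col-0 mean.

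These enzymes use hydrogen peroxide to oxidize phenolics, which cross-links lignin monomers, suberin and wall proteins and stiffens the wall. They can also release hydrogen peroxide and hydroxyl radicals, which takes part in the oxidative burst against microbes and in loosening the wall of growing cells. Many members are known mainly from roots, where some act in root hairs and others in the lignin of the Casparian strip. Because bulk tissue was measured, a change in the number of cells that express a gene and a change in its RNA per cell cannot be told apart.

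The array reads each gene through a probe of 60 bases. The probe of *PER4* (*AT1G14540*, chromosome 1) is shown because it read 1 of the 2 DEPs of the family, a term defined with the counts further on. It is written in lower case throughout, since no stretch of it was singled out.

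PER4 probe A_84_P16226: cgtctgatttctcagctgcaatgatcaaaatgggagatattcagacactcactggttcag

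Its G and C bases made up 43.3% of the sequence. The probe of *AT1G05240* (A_84_P277420), the gene with the largest difference, had 35%. The array annotation assigns that probe to the transcripts of *AT1G05240* and of its neighbor *AT1G05250*, so the signals of the pair cannot be told apart.

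A gene was counted as detected when the scanner software marked at least 1 of its probes as well above background on all 3 arrays of at least 1 group. By this rule 37 of the 59 measured members were detected, which is 62.7%, against 76.2% of all genes with a matched probe. Of the 37, 32 were read on all 6 arrays. The other 5 were detected on all arrays of 1 group only, namely *AT1G05240* and *AT2G18150* in the *OsbHLH068*-overexpressing plants and *PRX52* (*AT5G05340*), *AT5G15180* and *AT5G64100* in Col-0. A gene that enters through 1 group in this way is more likely to differ between the groups, so these 5 are not read as a result of their own.

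Another 8 members were above background on some arrays but never on a full group. They were *AT1G24110*, *AT1G68850*, *AT2G38390*, *AT4G26010*, *AT5G14130*, *AT5G19880*, *AT5G19890* and *PER64* (*AT5G42180*). Among them *AT5G14130*, above background on 2 Col-0 arrays and 0 transgenic arrays, had a log2 fold change of −0.55 (adjusted P = 0.205). The remaining 14 were above background on no array. They were *AT1G14550*, *AT1G30870*, *AT1G49570*, *AT2G18140*, *AT2G35380*, *AT2G39040*, *AT3G01190*, *AT3G50990*, *AT4G08780*, *AT4G17690*, *AT4G30170*, *AT4G31760*, *AT5G17820* and *RHS18* (*AT5G22410*). Their 15 probes read between 2.78 and 4.90 on single arrays, and the lowest signal that counted as well above background was between 4.10 and 4.41 on each array. Their log2 fold changes lay between −0.55 and 0.25, which are differences between signals at the level of the background.

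Over the whole family the values were centered on no difference. The median log2 fold change was −0.01 over all 79 probes and also −0.01 over the 52 detected probes, against 0.02 over all probes of the array. There were 39 probes above 0 and 40 below. Among the 46 probes read on all arrays, 32 had a log2 fold change within 0.5 of 0. For 35 of these 46 the 95% confidence interval lay within 1 of 0 on the log2 scale, and for the others a change of that size was not excluded by the interval.

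With an adjusted P under 0.05 by limma as the threshold, 1 of the 79 probes passed, that of *AT1G05240*, which was higher. Over the array 0.527% of the 43603 probes passed, 0.266% higher and 0.261% lower. In the lower direction 0 of the peroxidase probes passed, and at so small a share this count says little about the family. A differentially expressed probe (DEP) is here a probe whose log2 fold change exceeds 1 in either direction with an unadjusted limma P under 0.05. The fold and P thresholds are those of the study's methods, which name another test, and the methods' t-test on the same values gave 396 DEPs over the array in place of 509 and the same count of peroxidase DEPs, 2. There were 2 peroxidase DEPs, *AT1G05240* and *PER4*, both higher, and 0 lower, where 1.17% of all probes were DEPs, 0.378% higher and 0.789% lower. With the unadjusted P alone 14 peroxidase probes passed, 8 higher and 6 lower. This is 14 of 79 beside 19.8% of all probes, 10.9% higher and 8.89% lower, so the share was close to that of the array. The arrays of the groups did not overlap for 14 peroxidase probes, 9 higher and 5 lower, beside 27% of all probes, 14.7% higher and 12.3% lower. For each such probe the two-sided exact permutation test gave P = 0.1, the smallest that 3 arrays against 3 allow.

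**Figure D1:**
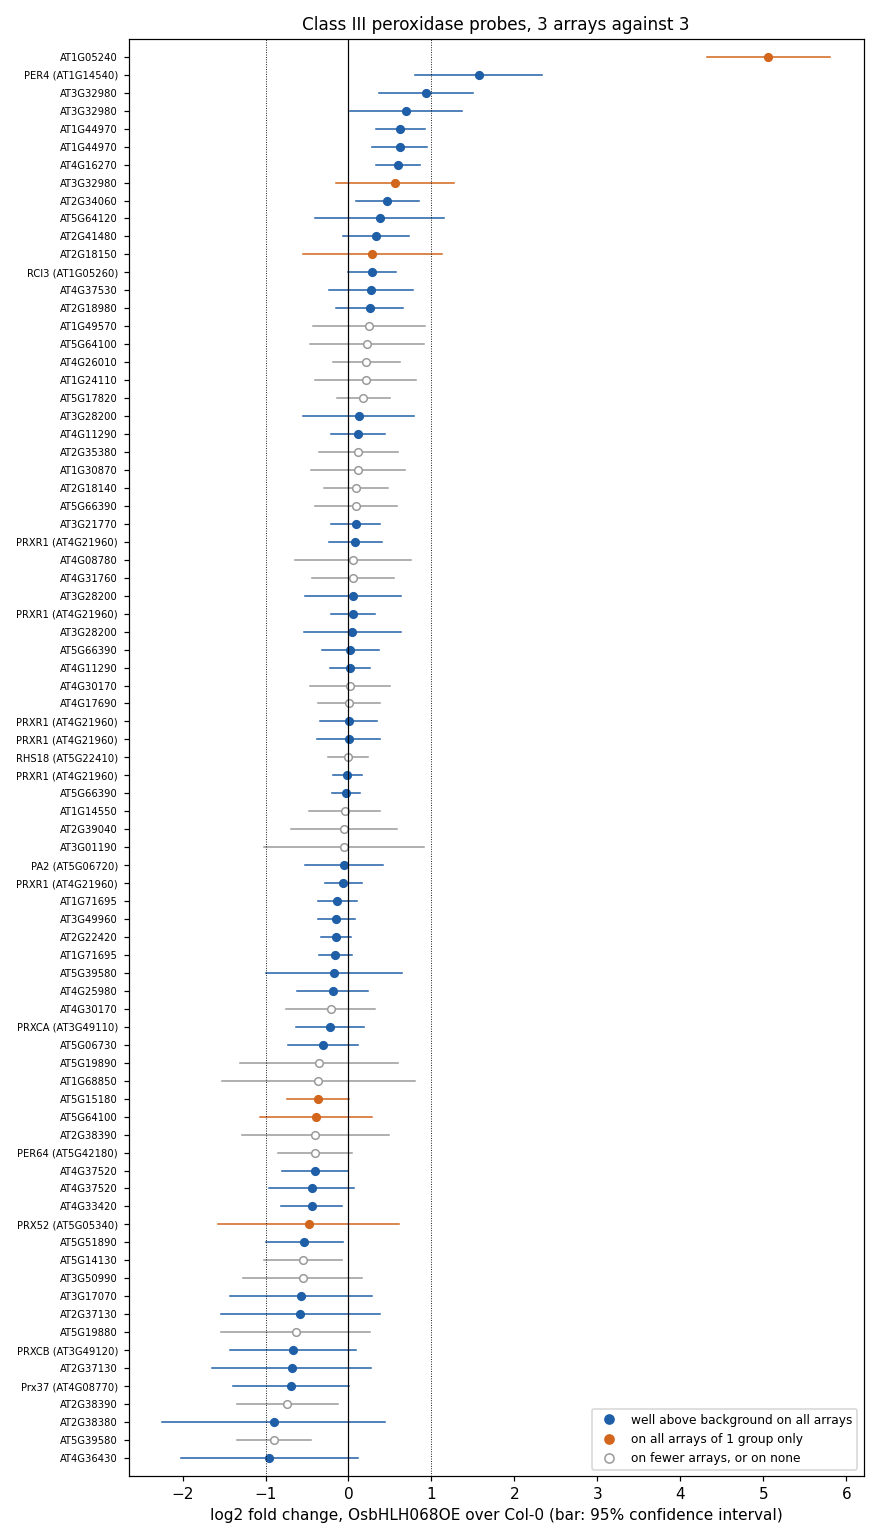
Log2 fold change of each of the 79 peroxidase probes, *OsbHLH068*-overexpressing over Col-0 (3 arrays each), with the 95% confidence interval from limma as a bar; color shows on which arrays the probe was well above background and dotted lines mark 1 and −1. The probe of *AT1G05240* stands at 5.06 and that of *PER4* at 1.57, and every other probe lies between −0.95 and 0.93.

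*AT1G05240* showed the largest difference of the family. With its tandem neighbor *AT1G05250* it encodes a pair of closely related peroxidases, of which *AT1G05240* is known for acting in root hair growth and *AT1G05250* (PRX2) in lignin formation. The shared probe read 4.32, 3.56 and 3.12 on the Col-0 arrays and 8.75, 8.89 and 8.54 on the *OsbHLH068*-overexpressing arrays. It was above background on 0 of 3 Col-0 arrays and on 3 of 3 transgenic arrays, with no overlap. The mean was 3.67 ± 0.61 (SD, n = 3) in Col-0 and 8.73 ± 0.18 (SD, n = 3) in the transgenic plants, and the log2 fold change was 5.06 (SE 0.30, 95% confidence interval 4.32 to 5.80, limma adjusted P = 0.0253). Since Col-0 was not well above background, only a lower bound of the change can be given. With the Col-0 value on each array taken as the higher of its own signal and the lowest signal well above background, the pair rose at least 20.3-fold on the deposited scale. The bound depends on the background correction, since an offset of 50 in normexp gave a log2 fold change of 2.90 and no background correction gave 2.99, both past the adjusted threshold.

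The difference was 4.43 on the slide with replicate 1 and 5.38 on the slide with replicates 2 and 3. With replicate number as a block the adjusted P was 0.117, and with slide as a block it was 0.0391. The adjusted P was 0.115 without Col-0 replicate 2, 0.0530 without Col-0 replicate 3, 0.146, 0.177 and 0.0519 without *OsbHLH068*-overexpressing replicates 1, 2 and 3, and 0.0155 without Col-0 replicate 1. In these fits the log2 fold change stayed between 4.79 and 5.39. The 5 genes on each side of the pair were also examined. Of these 10 genes 8 had a probe, and their 10 probes had log2 fold changes from −0.52 to 0.28, with 0 DEPs and 0 at an adjusted or an unadjusted P under 0.05 by limma.

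*RCI3* (*AT1G05260*), a peroxidase induced by cold and the next gene beside that pair, was read on all arrays at 6.70, 6.96 and 6.98 in Col-0 and at 7.29, 7.03 and 7.16 in the *OsbHLH068*-overexpressing plants. All 3 transgenic arrays were above all 3 controls, but by a log2 fold change of only 0.28 (SE 0.12, adjusted P = 0.258).

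*AT1G05240* belongs to a list of 7 peroxidases known from root hairs and the root epidermis, and the other members did not move with it. *AT1G30870*, *AT3G01190*, *AT5G17820* and *RHS18* were above background on no array, and *AT4G26010* on 1 Col-0 and 2 transgenic arrays. *AT3G49960* was read on all arrays at 6.11, 5.93 and 5.95 in Col-0 and 5.77, 5.83 and 5.95 in the transgenic plants. Its groups overlapped and its log2 fold change was −0.14 (adjusted P = 0.425). Without *AT1G05240* the log2 fold changes of the list lay between −0.14 and 0.21.

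Levels of root markers were examined because the aerial tissue should lack root hairs. Of 9 root hair markers, which include *RHD6*, *RSL4*, *EXPA7*, *COBL9* and *LRX1*, 0 were detected, and 7 of their 10 probes were above background on no array. Their summed linear signal was between 200.1 and 223.2 on the Col-0 arrays and between 215.2 and 221.3 on the transgenic arrays, ranges that overlap. Of the 7 root endodermis markers 4 were detected, and their summed signal ran from 426.2 to 452.9 in Col-0 and from 458.7 to 471.6 in the transgenic plants. This sum was higher without overlap, but the mean log2 signal of these markers overlapped, at 5.07 to 5.12 in Col-0 and 5.04 to 5.09 in the transgenic plants. The part of the endodermis markers in the peroxidase values was not tested. Of 4 markers of root ion transport 2 were detected, and their summed signal ran from 192.5 to 225.9 in Col-0 and from 239.4 to 256.4 in the transgenic plants, without overlap. The mean log2 signal of these markers overlapped, at 4.89 to 5.10 in Col-0 and 4.97 to 5.09 in the transgenic plants. Of their 5 probes 2 were higher and 3 lower. Among them *SKOR*, a potassium channel of the root vasculature, had a log2 fold change of 0.53 (adjusted P = 0.0920, no overlap). The other detected marker, *FRO2*, had 0.08 (adjusted P = 0.705, overlapping groups), and both *IRT1* probes and *NRT2:1* were above background on no array. All 34 probes of the 10 aerial markers were detected, and by limma 0 had an adjusted P under 0.05. At an unadjusted P under 0.05 by limma 4 of the 34 were higher and 0 lower, beside 10.9% higher and 8.89% lower over all probes. These 4 were the probes of the epidermal genes *KCS10* (FDH) and *ATML1*. *KCS10* had log2 fold changes of 0.44 (adjusted P = 0.112) and 0.64 (adjusted P = 0.0642), and *ATML1* had 0.32 (adjusted P = 0.238) and 0.43 (adjusted P = 0.0950). The markers of that list with 1 probe each were mixed. *MYB0* (GL1) gave 0.46 (adjusted P = 0.476) and *SPCH* 0.40 (adjusted P = 0.275). *FMA* gave 0.04 (adjusted P = 0.854), *MUTE* −0.08 (adjusted P = 0.833) and *KAT1* −0.08 (adjusted P = 0.646), all with overlapping groups. The part of the root transport and epidermal markers in the peroxidase values was not tested.

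**Figure D2:**
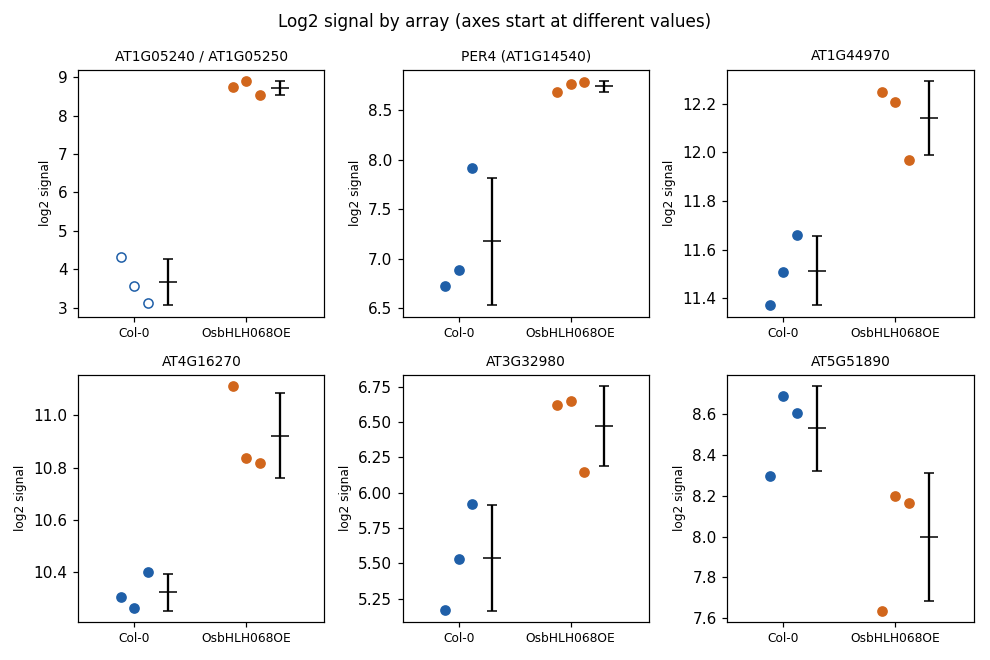
Log2 signal on each array for 6 peroxidase probes in Col-0 and *OsbHLH068*-overexpressing plants, with the mean and SD (n = 3) beside the points; open circles mark a group that was not well above background on all 3 arrays, and each panel has its own axis range. *AT1G05240* goes from between 3.12 and 4.32 to between 8.54 and 8.89, and the smaller differences of the other panels also show no overlap between groups.

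A list of 9 peroxidases that act in defense and the oxidative burst had 12 probes, of which 9 were detected. By limma 0 had an adjusted P under 0.05, and 1, that of *PER4*, was a DEP. At an unadjusted P under 0.05, which 10.9% of all probes passed higher and 8.89% lower, another 2 probes were higher and 1 was lower, the latter a probe of *AT5G39580* that was above background on no array. The median log2 fold change was 0.00 over the 12 probes and 0.38 over the 9 detected ones, of which 3 read the same gene, *AT3G32980*. The members differed among themselves in sign.

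*PER4*, a peroxidase whose transcript is induced by microbial elicitors and which is also assigned to lignin formation, read 6.73, 6.88 and 7.91 in Col-0 and 8.68, 8.76 and 8.79 in the *OsbHLH068*-overexpressing plants. Col-0 replicate 3 was the highest of the controls and still lay below every transgenic array. The log2 fold change was 1.57 (SE 0.31, 95% confidence interval 0.81 to 2.33, adjusted P = 0.0953), so *PER4* met the rule for a DEP but not the adjusted threshold. It was 1.96 on the slide with replicate 1 and 1.38 on the other. Its tandem neighbor *AT1G14550* was above background on no array, with a log2 fold change of −0.05.

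*AT3G32980*, a close relative of *PRXCA* and *PRXCB*, was read by 3 probes that all leaned higher in the *OsbHLH068*-overexpressing plants. The first read 5.17, 5.53 and 5.92 in Col-0 and 6.62, 6.65 and 6.15 in the transgenic plants, without overlap. Its log2 fold change was 0.93 (SE 0.23, adjusted P = 0.128), and those of the other probes were 0.70 (adjusted P = 0.242) and 0.56 (adjusted P = 0.337). None of the 3 passed the adjusted threshold, and only the last had overlapping groups.

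*PRXCA* (*AT3G49110*) and *PRXCB* (*AT3G49120*) are a tandem pair that generates much of the apoplastic hydrogen peroxide of the oxidative burst. *PRXCA* read 8.35, 8.54 and 8.76 in Col-0 and 8.07, 8.31 and 8.58 in the transgenic plants, with a log2 fold change of −0.23 (adjusted P = 0.489). *PRXCB* read 10.65, 11.84 and 11.45 in Col-0 and 10.41, 10.72 and 10.81 in the transgenic plants. Col-0 replicate 1 fell within the transgenic range, although both genes read lower in the transgenic plants in 3 of 3 same-numbered pairs, and the log2 fold change of *PRXCB* was −0.67 (SE 0.31, adjusted P = 0.297). *AT3G32980* thus read higher and its relatives *PRXCA* and *PRXCB* read lower in the transgenic plants, and none of these differences passed the adjusted threshold.

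*Prx37* (*AT4G08770*), whose overexpression is known to reduce growth, gave 5.68, 6.73 and 6.46 in Col-0 and 5.33, 5.76 and 5.71 in the transgenic plants. Col-0 replicate 1 again lay within the transgenic range, at a log2 fold change of −0.69 (adjusted P = 0.256). Its tandem neighbor *AT4G08780* was not detected on any array. *AT5G64120* (PRX71), a wall peroxidase induced by wall damage and infection, ranged from 9.81 to 11.12 in Col-0 and from 10.86 to 10.93 in the transgenic plants. The controls spanned the transgenic values, with a log2 fold change of 0.38 (adjusted P = 0.544).

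*AT5G39580* had probes that disagreed. The detected probe read 8.58, 9.92 and 9.54 in Col-0 and 9.09, 9.17 and 9.26 in the transgenic plants, a log2 fold change of −0.18 (adjusted P = 0.800). The other probe was above background on no array and differed by −0.90 (adjusted P = 0.0982), between signals of 4.40 to 4.46 and 3.18 to 3.89. A difference between signals at background is not read here as one in expression.

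A list of 10 peroxidases known for lignin formation had 9 members with a probe of their own and 11 probes, of which 9 were detected. By limma 0 of these probes passed the adjusted threshold, and 1 was a DEP (*PER4*). These counts leave out the probe shared by *AT1G05240* and *AT1G05250* (PRX2), the latter also known for lignin formation. That probe had a log2 fold change of 5.06 (adjusted P = 0.0253), and which gene of the pair it read cannot be told. At an unadjusted P under 0.05 *PER4* was the 1 higher probe and 1 was lower, so 2 of 11 passed beside 19.8% of all probes. The median was −0.03, beside 0.02 for all probes.

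The lower probe was that of *AT5G51890* (PRX66), a peroxidase of the lignifying cells of the xylem. It read 8.30, 8.69 and 8.61 in Col-0 and 7.64, 8.20 and 8.16 in the *OsbHLH068*-overexpressing plants. Every control array lay above every transgenic array, and in both groups replicate 1 was the lowest. The log2 fold change was −0.53 (SE 0.19, adjusted P = 0.212), and the adjusted P was 0.0489 with slide as a block and 0.123 with replicate number as a block. The differences were −0.66 on the slide with replicate 1 and −0.47 on the other.

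*AT4G36430* (PRX49) had the most negative log2 fold change of the family, −0.95 (SE 0.44, adjusted P = 0.292), and 1 array stood apart. Its values were 6.15, 6.40 and 7.67 in Col-0 and 6.28, 5.49 and 5.59 in the transgenic plants, so that only Col-0 replicate 3 stood clearly above the rest. The slides disagreed, with 0.13 on that with replicate 1 and −1.50 on the other. *AT2G22420* (PRX17), a peroxidase of lignified tissue, had little spread and no overlap, with 12.30, 12.20 and 12.21 in Col-0 against 12.06, 12.08 and 12.12. Its log2 fold change was −0.15 (adjusted P = 0.314).

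*AT2G41480* (PRX25) read 8.09, 8.29 and 7.996 in Col-0 and 8.77, 8.24 and 8.36 in the transgenic plants (log2 fold change 0.33, adjusted P = 0.319). *AT5G66390* (PRX72), which is needed for normal stem lignin, had 3 probes with log2 fold changes from −0.03 to 0.09. Its 2 detected probes had 95% confidence intervals of −0.32 to 0.36 and −0.20 to 0.14. Both intervals were narrow and held 0. *PRX52*, known from the fibers of the stem, read 4.84, 6.17 and 4.67 in Col-0 and 4.34, 4.67 and 5.24 in the transgenic plants, overlapping and near background. *PER64*, which acts at the Casparian strip of the root, was above background on 1 Col-0 array.

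*UPB1* (UPBEAT1, *AT2G47270*) is a transcription factor that represses a set of peroxidase genes in the root tip, among them *AT4G16270*, *AT4G11290* and *AT5G17820*. It is not a peroxidase and comes from a list of 3 known regulators of peroxidase genes. Of the others, *AGL15* (2 probes) had log2 fold changes of −0.01 (adjusted P = 0.978) and 0.00 (adjusted P = 0.994), and *RSL4* was above background on no array. The first probe of *UPB1* read 7.42, 8.44 and 8.46 in Col-0 against 5.83, 6.32 and 6.95 in the transgenic plants. Its other probe read 6.76, 7.71 and 7.83 in Col-0 against 5.56, 5.65 and 6.48. Both were lower in the *OsbHLH068*-overexpressing plants on every array. The log2 fold changes were −1.74 (SE 0.39, adjusted P = 0.113) and −1.54 (SE 0.37, adjusted P = 0.123), so both were DEPs and neither passed the adjusted threshold.

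*AT4G16270* (PRX40) read 10.31, 10.26 and 10.40 in Col-0 and 11.11, 10.84 and 10.82 in the transgenic plants. The arrays did not overlap and the control values were close to each other. The log2 fold change was 0.60 (SE 0.11, 95% confidence interval 0.34 to 0.86, adjusted P = 0.0844). The differences within slides were 0.81 and 0.50. *AT4G11290* (PRX39) was read by 2 probes with overlapping groups and log2 fold changes of 0.12 (adjusted P = 0.656) and 0.02 (adjusted P = 0.945). *AT5G17820* (PRX57) was not detected on any array. Among the 3 genes, then, *AT4G16270* alone had groups that did not overlap, and by limma 0 of their 4 probes had an adjusted P under 0.05. The part of *UPB1* in the peroxidase values was not tested.

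**Figure D3:**
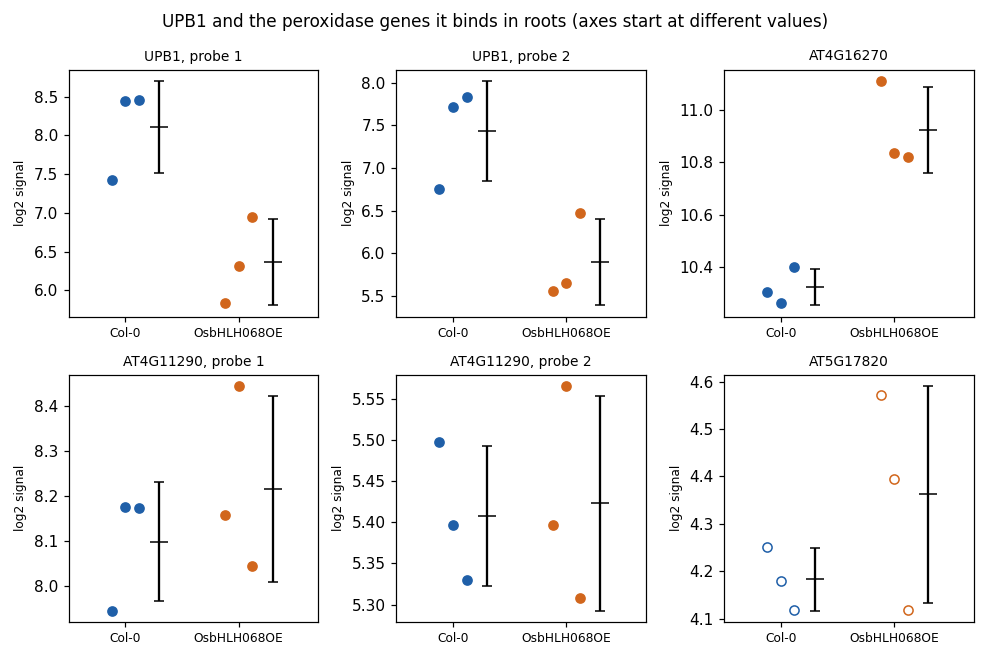
Log2 signal on each array of the 2 probes of *UPB1* and of the probes of the 3 peroxidase genes that it represses in roots, with mean and SD (n = 3); open circles mark values not above background, and axis ranges differ. Both *UPB1* probes are lower on all *OsbHLH068*-overexpressing arrays, *AT4G16270* is higher by 0.60, and the groups of *AT4G11290* overlap.

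Other differences without overlap were found in members that are in none of the role lists used here. *AT1G44970* was read by 2 probes that gave nearly the same difference. The first read 11.37, 11.51 and 11.66 in Col-0 and 12.25, 12.21 and 11.97 in the *OsbHLH068*-overexpressing plants (log2 fold change 0.63, SE 0.12, adjusted P = 0.0920). The other read 8.24, 8.31 and 8.63 in Col-0 and 9.11, 9.08 and 8.85 in the transgenic plants (log2 fold change 0.62, SE 0.14, adjusted P = 0.112). In both probes Col-0 replicate 3 was the highest control and transgenic replicate 3 the lowest of its group. The differences within slides were 0.87 and 0.50 for the first probe.

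*AT2G34060* read 10.24, 9.68 and 9.86 in Col-0 and 10.50, 10.34 and 10.34 in the transgenic plants. The groups were separate by a narrow margin, with a log2 fold change of 0.47 (SE 0.16, adjusted P = 0.193). Without Col-0 replicate 1 it was 0.62 (adjusted P = 0.0447). *AT4G33420* read lower, at 10.44, 10.74 and 10.32 in Col-0 and 10.21, 10.10 and 9.85 in the transgenic plants. Its groups were also separate, with a log2 fold change of −0.44 (SE 0.15, adjusted P = 0.198).

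*AT4G37520* (2 probes) and its tandem neighbor *AT4G37530* encode closely related proteins and leaned in opposite directions. For *AT4G37520* 1 probe read 12.63, 13.18 and 12.94 in Col-0 and 12.35, 12.50 and 12.67 in the transgenic plants. Its log2 fold changes were −0.41 (adjusted P = 0.245) and −0.44 (adjusted P = 0.305), with overlap by replicate 1 of Col-0. *AT4G37530* read 8.74, 9.53 and 9.16 in Col-0 and 9.30, 9.54 and 9.41 in the transgenic plants, a log2 fold change of 0.27 (adjusted P = 0.495). None of these values passed the adjusted threshold, and the difference between the neighbors was not tested.

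In other tandem pairs at most 1 gene was read on all arrays, except for *PA2* (*AT5G06720*) and *AT5G06730*. *PA2* read 7.56, 7.13 and 7.29 in Col-0 and 7.63, 7.09 and 7.09 in the transgenic plants (log2 fold change −0.06, adjusted P = 0.893). *AT5G06730* was dimmer, at 5.22, 5.13 and 5.54 in Col-0 and 5.27, 4.75 and 4.94 (log2 fold change −0.31, adjusted P = 0.369). The groups of both genes overlapped. *AT2G38380* read 6.17, 6.30 and 7.84 in Col-0 and 6.62, 5.74 and 5.25 in the transgenic plants, while its neighbor *AT2G38390* was above background on only 1 array in 1 of its 2 probes. As in *AT4G36430*, Col-0 replicate 3 was high in *AT2G38380*, whose log2 fold change was −0.90 (SE 0.55, adjusted P = 0.405). *AT2G18150* read 4.52 to 5.80 in Col-0 and 5.16 to 5.75 in the transgenic plants, and its neighbor *AT2G18140* was not detected. *AT5G19880* and *AT5G19890* were above background on 1 and 2 Col-0 arrays and on 0 transgenic arrays, with log2 fold changes of −0.64 (adjusted P = 0.379) and −0.36 (adjusted P = 0.641).

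Members tied to seeds and to cold or drying held 0 probes with an adjusted P under 0.05 by limma. Of the 5 peroxidases known from seeds and germination 4 were detected. *AT3G50990* (PER36), which loosens the outer wall of the seed coat, was above background on no array. *AT2G18980* read 5.76, 5.32 and 5.33 in Col-0 and 5.72, 5.92 and 5.54 in the transgenic plants (log2 fold change 0.25, adjusted P = 0.428). *AT5G64100* had a probe on all Col-0 arrays, with a log2 fold change of −0.39 (adjusted P = 0.465), and a probe on no array. Among the 4 members of the cold and drying list, *RCI3* was the only gene whose groups did not overlap.

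The rest of the detected members had small differences. With 1 of its 6 probes *PRXR1* read 15.45, 15.51 and 15.52 in Col-0 and 15.44, 15.49 and 15.53 in the transgenic plants, and all 6 had log2 fold changes between −0.06 and 0.08. The spot of 1 of these 6 probes on the array of Col-0 replicate 1 was marked as an outlier and left out. *AT1G71695* gave −0.16 (adjusted P = 0.326) and −0.13 (adjusted P = 0.477), and *AT3G21770* gave 0.09 (adjusted P = 0.724). The 3 probes of *AT3G28200* lay between 0.05 and 0.12. *AT4G25980* gave −0.19 (adjusted P = 0.573). *AT5G15180* read 5.10, 5.27 and 5.50 in Col-0, where it was above background, and 5.13, 4.92 and 4.71 in the transgenic plants, where it was not, with overlapping groups (log2 fold change −0.37, adjusted P = 0.258).

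Members with several probes mostly gave similar differences. Among the 9 genes with at least 2 detected probes, the spread of log2 fold changes over all probes of a gene ran from 0.01 in *AT1G44970* to 0.37 in *AT3G32980*. It was 0.14 over the 6 probes of *PRXR1*. The wider spreads, 0.73 in *AT5G39580* and 0.62 in *AT5G64100*, each set a detected probe against a probe that was above background on no array.

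The spread between replicates was wider among the peroxidases than over the array. Over the 46 member probes read on all arrays the median SD within groups was 0.22, against 0.13 over 30298 such probes of the array. Replicate 1, which was on a slide of its own, was the lowest of its group in both groups for 18 of the 46 probes (39.1%), against 21.2% of all such probes. It was the highest in both groups for 5 (10.9%), against 28%. The median absolute difference between slides was 0.24 for the members and 0.13 for all. These shares are a description without a test, and since several probes read the same gene they are not independent.

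*AT2G37130* was the clearest case. It read 10.53, 11.30 and 11.51 in Col-0 and 9.75, 10.49 and 11.04 in the transgenic plants, so replicate 1 was low in both, by 0.94 between slides. Its log2 fold change was −0.69 (SE 0.39, adjusted P = 0.379), and that of its other probe −0.58 (adjusted P = 0.448). *AT3G17070* read 8.46, 9.52 and 9.32 in Col-0 and 7.997, 8.79 and 8.82 in the transgenic plants, with a difference of 0.88 between slides and a log2 fold change of −0.57 (adjusted P = 0.408). Within each slide the transgenic plants read lower for *AT2G37130*, with differences of −0.78 on that with replicate 1 and −0.64 on the other.

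The slides also differed in the opposite direction. *AT3G28200* read 13.50, 12.88 and 12.66 in Col-0 and 13.54, 13.04 and 12.84 in the transgenic plants, a difference of −0.66 between slides, and its groups hardly differed. In *PA2* the difference between slides was −0.45. Replicate 1 was thus neither low nor high in all members, and the slide and the set of plants hybridized on it cannot be told apart.

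**Figure D4:**
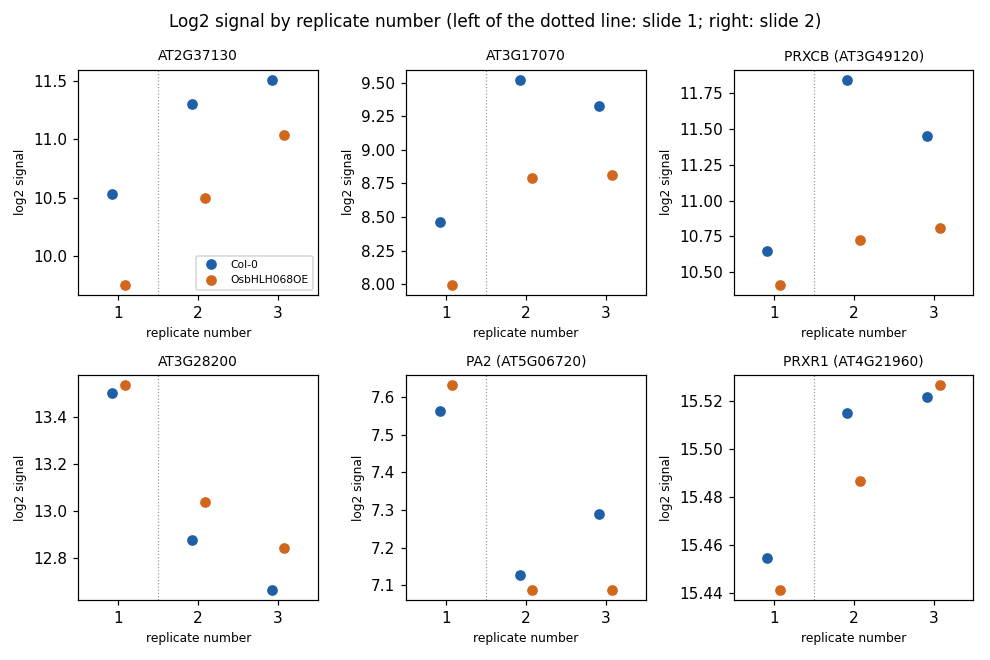
Log2 signal of 6 peroxidase probes by replicate number in Col-0 and *OsbHLH068*-overexpressing plants; the dotted line divides the slide with replicate 1 from the slide with replicates 2 and 3, and axis ranges differ. Replicate 1 is low in both groups for *AT2G37130*, *AT3G17070* and *PRXCB* and high in both for *AT3G28200* and *PA2*, while all 6 arrays of *PRXR1* lie between 15.44 and 15.53.

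The 13 family genes outside the 60 loci, of which 12 had a probe, were set beside them. Of these 12, 4 were detected (33.3%), and 1 probe had an adjusted P under 0.05. It belonged to *AT2G24800*, which read 4.94, 4.93 and 4.84 in Col-0, where it was above background on 0 of 3 arrays, and 5.95, 5.86 and 5.91 in the *OsbHLH068*-overexpressing plants, where it was above background on all. *AT2G24800* read higher in the transgenic plants, with a log2 fold change of 1.005 (SE 0.08, 95% confidence interval 0.82 to 1.19, limma adjusted P = 0.0280). This was far less than for the pair of *AT1G05240* and *AT1G05250*. The rule given above returned 2.01-fold, which here is the fitted fold itself and so not a lower bound. The gene was detected through 1 group only, a class described above as more likely to differ. By the methods' t-test 0 probes of the whole array passed the adjusted threshold, so this call did not hold there. The replicate block left 1 passing probe on the array, which was not identified.

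**Figure D5:**
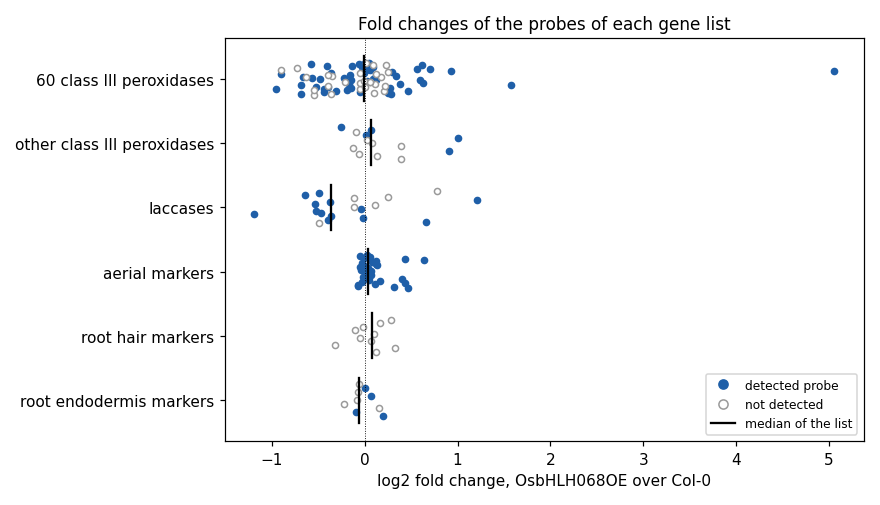
Log2 fold changes of the probes of 6 gene lists, *OsbHLH068*-overexpressing over Col-0, with filled points for detected probes and a line at the median of each list. The 60 peroxidases have a median of −0.01 with *AT1G05240* at 5.06 far to the right, laccases have a median of −0.37, and 0 root hair marker probes are detected.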

How the data were processed

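Agilent *Arabidopsis* V4 one-color arrays were compared between 3 Col-0 and 3 *35S::OsbHLH068* (9) samples, grouped by the sample labels. The intensity values that the authors deposited are median spot and background signals read by Feature Extraction 10.7.1.1, with its flags and processed signal. The log2 values that the authors deposited came from limma, with normexp for the background followed by quantile normalization, and the same steps rebuilt here (offset 0) differed from them by at most 5e-09. These log2 values were the main data. No value columns were without a sample.

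The 1417 control spots took part in the normalization and were left out after it. A further 12 values whose spots the scanner software marked as outliers were dropped, and repeated spots were averaged. The 43603 probes were fitted with limma 3.58.1 in R 4.3.3 (lmFit and eBayes, constant prior, no covariate), with Benjamini-Hochberg adjustment over all probes. RefSeq transcripts (TAIR10.1) named the gene of 34358 probes, and none of their coordinates was used. The number of arrays limits the precision. Same-numbered replicates deviated together from their group means (r = 0.476, 0.31 and 0.152 over 30290 probes above background on all arrays, and 0.264, 0.097 and 0.013 over all probes). Arrays of different number on slide 2 correlated as well (0.239 and 0.257), so number and slide cannot be fully told apart. Blocked values are printed where they change a call.

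Genes were named if a probe passed the adjusted threshold or was a DEP, if a probe had an unadjusted P under 0.05, if they belonged to a tandem pair or a role list, or if they were not detected. The members and lists were chosen with earlier results of these data known. The pipeline was tested on simulated arrays. The alternatives were other background corrections, scalings, filters, priors and thresholds, the methods' t-test, blocks for slide or replicate, and leaving out each array.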

Additional observations from a re-analysis of the deposited data

How the results depend on the processing

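The alternatives were run for the family counts and for 11 probes, those of *AT1G05240*, *PER4*, *AT1G44970* (2), *AT2G34060*, *AT3G32980* (2), *AT4G16270*, *AT4G33420*, *AT4G37520* (1) and *AT5G51890*, and the sign of these 11 held in each. They were not run for other named probes. Higher probes with an adjusted P under 0.05 numbered 1, against 5 with a normexp offset of 50, 4 without background correction, 4 with a filter on dim probes, 4 with an intensity trend and a robust prior, 0 with the methods' t-test, 0 with the replicate block, and 0 to 2 when arrays were left out in turn (2 without Col-0 replicate 1, otherwise 0). The filter kept probes well above background on all arrays of at least 1 group. Fewer probes were thus tested, and the filter drew on the group labels, so its adjusted P values are not independent of the comparison. For none of these settings was the cause of the different count tested. The added probes were those of *PER4*, *AT4G16270* and *AT1G44970* under the first 4 settings and of *AT2G34060* without Col-0 replicate 1, with adjusted P values for *PER4* of 0.0379, 0.0407, 0.0459 and 0.0476. Lower probes numbered 0, against 1 with slide as a block (*AT5G51890*) and 0 to 2 when arrays were left out. Both appeared without Col-0 replicate 1. Higher DEPs numbered 2, against 7 with a 1.5-fold threshold, 1 with an adjusted P, and 3 with the scanner-processed signal, without Col-0 replicate 3 and without *OsbHLH068*-overexpressing replicate 3. Lower DEPs numbered 0, against 2 with the scanner-processed signal, 2 with a 1.5-fold threshold, and 0 to 1 when arrays were left out (1 without Col-0 replicate 1 and 1 without *OsbHLH068*-overexpressing replicate 3). The median of the detected probes was −0.01, and −0.0652 to −0.00434 when arrays were left out. Over all probes, 230 had an adjusted P under 0.05, against 1 with the replicate block, 1018 with slide as a block, 1568 with an offset of 50 and 2697 when Col-0 replicate 1 was left out. For *AT1G05240* the log2 fold change was 2.90 with an offset of 50, 2.99 without background correction and 6.57 with the scanner-processed signal, and the cause was not tested. Signal over background limits what can be said of the 22 members that were not detected.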

Other observations

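Laccases, which join lignin monomers with oxygen where peroxidases use hydrogen peroxide, were measured beside the family by 19 probes of 17 genes. Of these, 13 probes were detected, with a median log2 fold change of −0.40, against 0.02 for the detected probes of the array. By limma 0 passed the adjusted threshold, and at an unadjusted P under 0.05 there were 1 higher and 6 lower probes of 19, beside 10.9% higher and 8.89% lower over all probes. *LAC8* (*AT5G01040*) read 6.06, 5.50 and 5.75 in Col-0 and 7.31, 7.12 and 6.52 in the *OsbHLH068*-overexpressing plants (log2 fold change 1.21, SE 0.24, adjusted P = 0.0959). *LAC2* (*AT2G29130*) read 5.67, 6.30 and 6.55 in Col-0 and 4.57, 5.15 and 5.20 in the transgenic plants (log2 fold change −1.19, SE 0.28, adjusted P = 0.118). Both were DEPs with groups that did not overlap. The other lower probes with an unadjusted P under 0.05 belonged to *IRX12* (*AT2G38080*, LAC4), *LAC10*, *LAC11*, *LAC12* and *LAC17*, with log2 fold changes of −0.50, −0.48, −0.65, −0.54 and −0.52. *LAC17* and *IRX12* are the main laccases of stem lignin.

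Floral organ identity genes were detected with all 6 of their probes. *SEP3* was lower in the transgenic plants without overlap in both probes, with log2 fold changes of −0.78 (adjusted P = 0.208) and −0.91 (adjusted P = 0.121), and *AG* read higher, with 0.55 (adjusted P = 0.231) and 0.53 (adjusted P = 0.257). *AP3* gave 0.00 (adjusted P = 0.996) and *PI* −0.26 (adjusted P = 0.477). None of these passed the adjusted threshold. Their part in the peroxidase values was not tested.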
